A study of Mus musculus with 36 samples.

Results

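The Kruppel-like factors measured here are 10 mouse transcription factors, Klf2, Klf3, Klf4, Klf6, Klf7, Klf9, Klf10, Klf11, Klf13 and Klf15. They were taken by gene symbol: every probe set of the array platform whose symbol is 1 of these 10 names was included, whatever its values. That gave 32 probe sets of the 45037 tested, and 10 genes of the 18193 named by a probe set with a single symbol. Klf3 and Klf9 had 7 probe sets each, Klf6 had 5, Klf7 had 4, Klf13 had 3 and Klf4 had 2. Klf2, Klf10, Klf11 and Klf15 had 1 each.

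Kruppel-like factors bind GC-rich and CACCC-containing DNA through zinc fingers at the carboxyl end, and differ in the cofactors that the rest of the protein recruits. Some are mainly activators, such as Klf2, which is known from endothelium and lymphocytes, and Klf15, which in liver is induced by fasting and glucocorticoids and drives amino acid breakdown and glucose production. Others are mainly repressors, such as Klf3, which recruits CtBP, and Klf9, Klf10, Klf11 and Klf13, which recruit Sin3. In brain, Klf7 and Klf9 are known for their part in axon growth and in the maturation of neurons, and Klf9 is a target of thyroid hormone and glucocorticoids.

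The arrays measured RNA of whole brain and of liver from male mice, aged 12 to 13 weeks and inbred: C57BL/6J, AKR/J or DBA/2J. In each strain, mice deprived of sleep for 6 h were compared with undisturbed controls, and the titles place all groups at Zeitgeber time 6, that is 6 h after light onset. The 12 groups (2 tissues, 3 strains, 2 conditions) held 3 arrays each, and each array carried a pool of RNA from 3 mice, so the spread between replicates is that between pools. The labels name no mutation, transgene or drug in any group; for AKR/J controls 2 and 3 of each tissue the source name gives Zeitgeber time 0 where the title gives 6, and called values and AKR/J effects that rest on them are also given without them, with the remaining AKR/J control assumed to vary like the other arrays. Values are log2 expression values from RMA, a method that sets arrays to a common distribution and sums up the probes of a probe set. The medians of all values were 4.78 in brain and 4.10 in liver, so levels were not compared between the tissues, and only differences within a tissue were. Whole organs hold many cell types, and fewer cells of a type and less RNA per cell cannot be told apart.

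Promoter sequences of the 5 genes with a changed level after sleep deprivation are printed because they show which binding motifs of the family and of its known regulators stand next to these starts. They are the 250 bases before an annotated start of the gene, on the gene's strand from 5′ to 3′, from RefSeq on GRCm38.p6. For Klf15 that start lies inside the gene, which spans chr6:90461043-90491803, so its window is not upstream of the whole gene. The same holds for Klf7, counted below but not printed, with a window at chr1:64121390-64121639 in a gene spanning chr1:64029448-64122345. Capitals mark 5 motifs searched on both strands: the GC box GGGCGG, the CACCC box CACCC, the E-box CACGTG that clock factors bind, the TGTTCT element of the glucocorticoid receptor, and the MEF2 element. GC and CACCC boxes can overlap and then share letters. The Klf2 promoter is at chr8:72318812-72319061 (plus strand), that of Klf3 at chr5:64803271-64803520 (plus), that of Klf11 at chr12:24651121-24651370 (plus), that of Klf13 at chr7:63938916-63939165 (minus) and that of Klf15 at chr6:90462326-90462575 (plus).
Klf2: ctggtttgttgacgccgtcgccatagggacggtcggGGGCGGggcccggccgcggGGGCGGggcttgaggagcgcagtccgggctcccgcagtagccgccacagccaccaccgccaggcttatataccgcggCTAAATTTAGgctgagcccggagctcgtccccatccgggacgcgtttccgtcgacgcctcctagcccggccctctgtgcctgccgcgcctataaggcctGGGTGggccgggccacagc
Klf3: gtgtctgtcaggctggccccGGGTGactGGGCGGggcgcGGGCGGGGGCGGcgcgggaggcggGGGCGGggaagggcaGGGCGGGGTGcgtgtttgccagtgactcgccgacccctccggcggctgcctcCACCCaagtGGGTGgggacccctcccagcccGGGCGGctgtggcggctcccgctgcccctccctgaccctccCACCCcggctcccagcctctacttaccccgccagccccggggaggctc
Klf11: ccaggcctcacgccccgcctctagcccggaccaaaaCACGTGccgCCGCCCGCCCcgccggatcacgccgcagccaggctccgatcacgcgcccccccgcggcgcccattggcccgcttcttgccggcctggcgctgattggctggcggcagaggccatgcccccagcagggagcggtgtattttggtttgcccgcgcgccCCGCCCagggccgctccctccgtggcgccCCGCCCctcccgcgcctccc
Klf13: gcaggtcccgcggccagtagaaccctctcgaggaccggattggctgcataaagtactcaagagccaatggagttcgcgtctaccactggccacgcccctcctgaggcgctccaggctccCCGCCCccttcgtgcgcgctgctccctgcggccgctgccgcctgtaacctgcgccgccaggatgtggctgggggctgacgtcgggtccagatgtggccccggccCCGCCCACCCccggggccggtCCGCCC
Klf15: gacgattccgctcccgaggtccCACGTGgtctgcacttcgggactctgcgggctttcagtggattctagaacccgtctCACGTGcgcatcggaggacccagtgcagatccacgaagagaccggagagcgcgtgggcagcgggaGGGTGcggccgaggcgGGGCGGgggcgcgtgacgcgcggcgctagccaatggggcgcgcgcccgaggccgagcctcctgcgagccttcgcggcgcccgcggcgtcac

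Of the 10 genes, 9 had a promoter entry; Klf10 is named only. A GC box was found in 8 of these 9 promoters, Klf9 being the exception, against 32.7% of 32851 RefSeq promoters of the same length. A CACCC box was found in 6 of 9, against 52.0%. The E-box was found in 4 of 9 (Klf4, Klf6, Klf11 and Klf15), against 6.0%. Klf15 held 2 of them, 228 and 172 bases before the start used, which lies inside the gene. The MEF2 element was found in Klf2 alone, 118 bases before the start, against 2.9%, and the TGTTCT element in 0 of 9, against 16.1%. These matches describe letters in a window and were not tested for binding.

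Within brain, pairs of arrays correlated at 0.978 to 0.997, and within liver at 0.980 to 0.996. The tissue labels matched their markers: neuron markers averaged 10.87 to 11.15 per brain array and 3.71 to 4.01 per liver array, and hepatocyte markers 5.28 to 5.65 and 13.45 to 13.94. The sleep-deprived brain arrays C57BL/6J 1, AKR/J 3 and DBA/2J 2 had narrowly spread values, with an SD of 1.91 to 1.97 over probe sets. Brain controls C57BL/6J 2 and DBA/2J 3 and liver control DBA/2J 1 had the largest 3′ minus 5′ beta-actin differences of their tissue, at 1.13, 0.98 and 2.16. Results are also given without these 6 arrays, called the doubted arrays. Gh, the pituitary growth hormone gene, was at 4.68 to 5.18 on the 3 AKR/J control brain arrays. It was at 9.89 to 11.41 on the 3 AKR/J sleep-deprived ones, so it differed along with sleep deprivation in that strain. In C57BL/6J brain, Gh was at 10.55, 12.10 and 11.22 in controls but at 11.77, 12.22 and 4.53 after sleep deprivation. All DBA/2J brain arrays lay between 10.41 and 12.89, with the conditions overlapping. The part of Gh in the brain values was not tested.

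In brain, Klf2 was higher after sleep deprivation in all 3 strains and was the only member to pass the test. On its probe set 1448890_at, the C57BL/6J controls were at 6.11, 6.35 and 6.39 and the sleep-deprived arrays at 6.76, 6.44 and 6.77. The AKR/J controls were at 5.87, 6.10 and 6.18 against 6.40, 6.50 and 6.35, and the DBA/2J controls at 5.84, 6.02 and 5.85 against 6.53, 6.70 and 6.31. In each strain every sleep-deprived array lay above every control, although C57BL/6J controls were as high as some AKR/J and DBA/2J sleep-deprived arrays. The effect averaged over strains was 0.45 ± 0.07 (log2 difference, SE, n = 3 arrays in each of 6 groups; 1.37-fold), with an adjusted p of 0.0026 in limma's moderated test. The call held without the doubted arrays (0.42, adjusted p = 0.0118), without AKR/J controls 2 and 3 (0.51, adjusted p = 0.0090) and without any 1 of the 18 arrays. It was lost when the strain AKR/J was left out (0.49, adjusted p = 0.0575).

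For the family as a whole, 1 of 32 probe sets passed in brain, against 1.73% of all probe sets, and 1 of 32 passed as higher, against 0.688%. Counted by gene, with each gene represented by its brightest probe set, 1 of 10 passed, against 2.55% of genes. The median log2 difference was 0.005 over the 32 probe sets and -0.002 over all. So the brain values show a single called member in a family whose median was close to that of all probe sets. Of the 32 probe sets, 7 had an unadjusted p under 0.05, against 12.1% of all probe sets, and 6 of these were higher after sleep deprivation, against 4.21%.

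**Figure D1:**
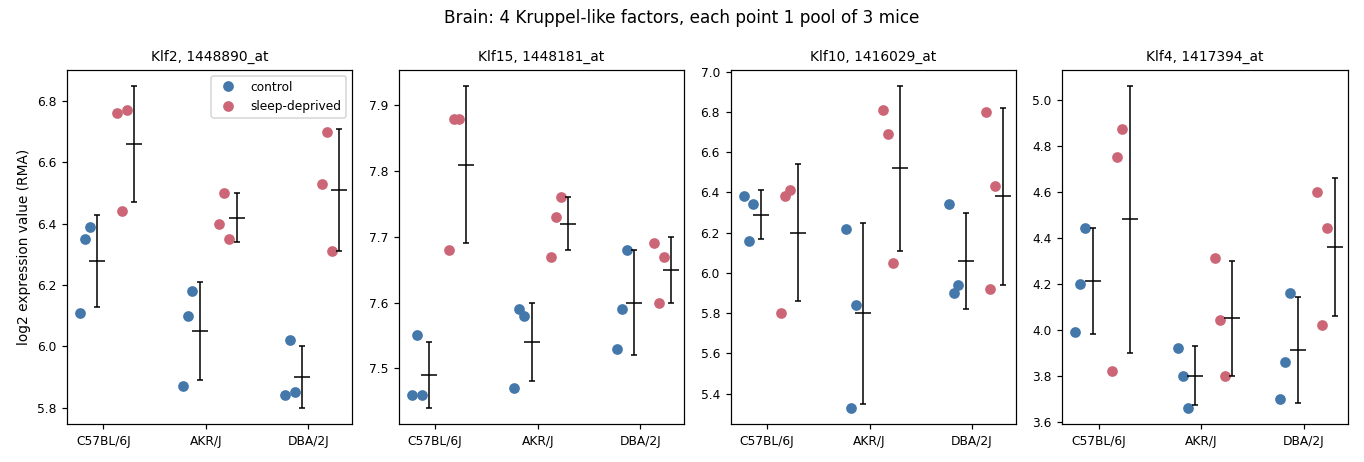
Log2 expression values (RMA, y axis) in brain of Klf2, Klf15, Klf10 and Klf4, by strain (x axis); each point is 1 array, a pool of 3 mice, and the bar gives the mean ± SD of 3 arrays. Klf4 is shown by its probe set with the smallest p of the mean effect, 1417394_at, which is not its brightest. Klf2 shows the sleep-deprived arrays above the controls in each strain, while Klf10 and Klf4 overlap in every strain.

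Klf15 came next in brain. The C57BL/6J controls were at 7.46, 7.55 and 7.46 against 7.68, 7.88 and 7.88 after sleep deprivation, and the AKR/J controls at 7.47, 7.59 and 7.58 against 7.67, 7.73 and 7.76. In DBA/2J the values were 7.53, 7.59 and 7.68 against 7.69, 7.60 and 7.67, so the groups did not overlap in C57BL/6J and AKR/J and overlapped in DBA/2J. The mean effect of 0.18 ± 0.05 had an adjusted p of 0.0501 (limma), just outside the threshold of 0.05. Without the doubted arrays it was 0.23 and passed (adjusted p = 0.0092), and it also passed without C57BL/6J sleep-deprived array 1 (0.21, adjusted p = 0.0200) or DBA/2J sleep-deprived array 2 (0.19, adjusted p = 0.0484). Without AKR/J controls 2 and 3 it was 0.21 (adjusted p = 0.1223).

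Klf4, a factor known from stem cells and endothelium, and Klf10, an early gene of TGF-beta signalling, varied widely between the brain arrays. Klf4 on 1417394_at was dim, with controls between 3.66 and 4.44 (median 3.92) and sleep-deprived arrays between 3.80 and 4.87 (median 4.31), and overlapped in each strain. Its mean effect was 0.32 ± 0.13 (adjusted p = 0.3106), and its other probe set, 1417395_at, gave 0.07. Klf10 on 1416029_at was at 6.22, 5.33 and 5.84 in AKR/J controls and 6.81, 6.69 and 6.05 after sleep deprivation, a difference of 0.72 ± 0.25 in that strain (adjusted p = 0.4815), or of 0.30 ± 0.33 without controls 2 and 3. In C57BL/6J the difference was -0.09 ± 0.25 and in DBA/2J 0.33 ± 0.25, and the mean effect was 0.32 ± 0.15 (adjusted p = 0.3953). For both genes the lowest sleep-deprived array of each strain was the doubted one: C57BL/6J array 1 (3.82 for Klf4 and 5.80 for Klf10), AKR/J array 3 (3.80 and 6.05) and DBA/2J array 2 (4.02 and 5.92). Without the doubted arrays, 5 of the 32 probe sets passed, against 4.14% of all probe sets under that setting: Klf2, Klf15, Klf4 1417394_at (0.57, adjusted p = 0.0021), Klf10 (0.50, adjusted p = 0.0477) and Klf9 1436952_at (0.33, adjusted p = 0.0040). Without C57BL/6J sleep-deprived array 1 alone, 3 passed (1.70% of all probe sets), and without DBA/2J sleep-deprived array 2 alone, 2 did (1.79%). Those calls thus depend on which brain arrays are used.

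Klf9 had its largest brain difference on 1436952_at. The C57BL/6J controls were at 7.40, 6.91 and 7.49 against 7.57, 7.78 and 7.79, the AKR/J controls at 7.25, 7.34 and 7.34 against 7.29, 7.56 and 7.03, and the DBA/2J controls at 6.63, 6.62 and 6.18 against 7.10, 6.70 and 7.22. The groups were apart in C57BL/6J and DBA/2J and overlapped in AKR/J, and the mean effect of 0.32 ± 0.10 did not pass (adjusted p = 0.1386). Over the other 6 Klf9 probe sets the mean effect ran from -0.04 to 0.15, so the probe sets of this gene did not give 1 size of effect. Klf11, which like Klf10 is induced by TGF-beta, was at 5.66 to 6.12 in controls (median 5.90) and 5.60 to 5.89 after sleep deprivation (median 5.75), a mean effect of -0.17 ± 0.07 with an adjusted p of 0.2960.

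The remaining members showed no called difference in brain. Klf3, with 7 probe sets, gave mean effects from -0.18 to 0.20, with both signs present. Klf6, known from injury responses of liver and vessel wall, gave -0.07 to -0.003 over 5 probe sets, and Klf7 gave -0.09 to 0.01 over 4. Klf13 gave 0.06 on 1432543_a_at, -0.004 on 1436316_at and 0.13 on 1456030_at.

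Taken strain by strain, limma called 0 of 32 probe sets in brain for C57BL/6J, against 0.0377% of all probe sets, 0 for AKR/J, against 0.300%, and 0 for DBA/2J, against 0.104%. At an unadjusted p under 0.05 the counts were 4, 3 and 2, against 4.49%, 6.66% and 6.81% of all probe sets. All of these probe sets were higher after sleep deprivation, against 2.10%, 2.60% and 2.08% of all probe sets called higher at that level. With arrays weighted by their quality, limma called 1, 1 and 2 members in these strains, against 1.72%, 3.42% and 1.24% of all probe sets. For Klf2 the difference was 0.38 ± 0.12 in C57BL/6J, and it was 0.37 ± 0.12 in AKR/J (0.55 ± 0.17 without controls 2 and 3) but 0.61 ± 0.12 in DBA/2J. The interaction of strain and sleep deprivation was called for 0 members and for 0 probe sets of the array (0%), and 0 members had an unadjusted p under 0.05, against 2.23% of all, so a difference between strains in the brain response was not shown for any member.

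In liver, 4 of the 10 genes rose after sleep deprivation: Klf15, Klf3, Klf13 and Klf11. They covered 6 of the 32 probe sets, all higher, against 3.60% of all probe sets called and 2.40% called as higher. By the brightest probe set of each gene, 4 of 10 genes passed, against 4.88% of genes. Of the 32 probe sets 26 had a positive mean effect, against 43.9% of all probe sets, and the median was 0.11 over the members and -0.01 over all. The called effects lay between 0.19 and 0.50 on the log2 scale.

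Klf15 was the member whose liver groups separated in every strain. On 1448181_at the C57BL/6J controls were at 9.90, 9.90 and 10.08 against 10.42, 10.58 and 10.54, the AKR/J controls at 10.02, 10.12 and 10.22 against 10.40, 10.58 and 10.33, and the DBA/2J controls at 9.91, 9.87 and 9.88 against 10.69, 10.18 and 10.43. Each sleep-deprived array was above every control of its strain, and the group means ran in the order DBA/2J control (9.89), C57BL/6J control (9.96), AKR/J control (10.12), then AKR/J and DBA/2J sleep-deprived (10.43 each) and C57BL/6J sleep-deprived (10.51). Arrays of neighbouring groups overlapped within the controls and within the sleep-deprived groups, and 1 DBA/2J sleep-deprived array (10.18) lay below the highest AKR/J control (10.22). The mean effect was 0.47 ± 0.06 (1.39-fold, adjusted p = 1.895e-04 in limma). It passed under all 9 alternative settings and without any 1 of the 18 liver arrays, at 0.43 to 0.55.

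**Figure D2:**
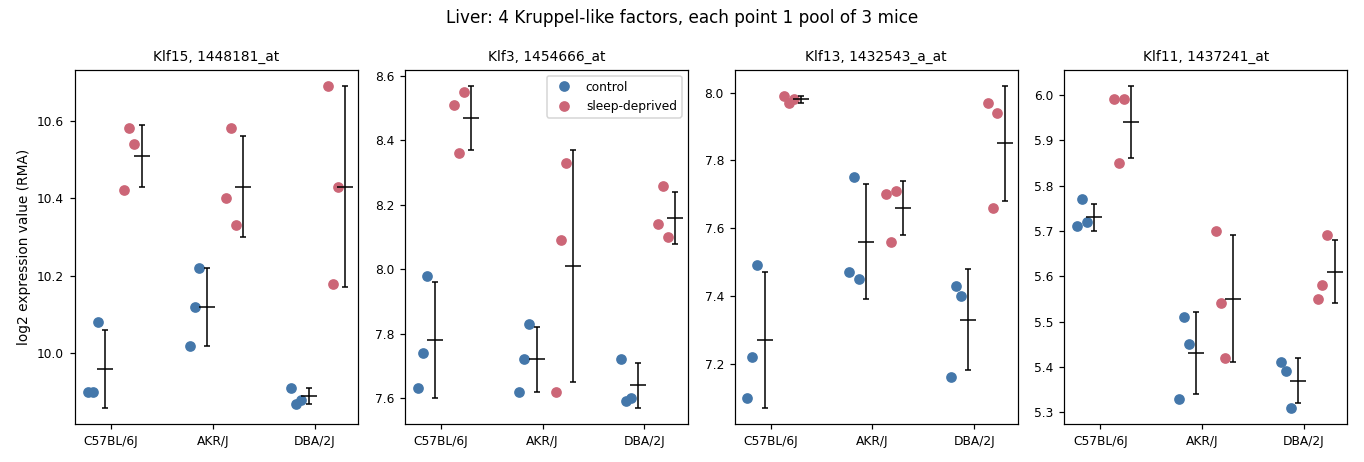
Log2 expression values (RMA, y axis) in liver of Klf15, Klf3, Klf13 and Klf11, by strain (x axis); each point is 1 array, a pool of 3 mice, and the bar gives the mean ± SD of 3 arrays. Each gene is shown by its probe set with the smallest p of the mean effect, 1454666_at for Klf3 and 1432543_a_at for Klf13. On these, all sleep-deprived arrays lie above the controls of their strain for Klf15, and for Klf3, Klf13 and Klf11 in C57BL/6J and DBA/2J but not in AKR/J. The brightest Klf13 probe set, 1436316_at, is not shown and separates in C57BL/6J alone.

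Klf3, the CtBP-recruiting repressor, rose on 2 of its 7 probe sets. On 1454666_at the C57BL/6J controls were at 7.63, 7.74 and 7.98 against 8.51, 8.36 and 8.55, the AKR/J controls at 7.62, 7.72 and 7.83 against 7.62, 8.09 and 8.33, and the DBA/2J controls at 7.72, 7.59 and 7.60 against 8.14, 8.26 and 8.10. The groups were apart in C57BL/6J and DBA/2J, and in AKR/J 1 sleep-deprived array was as low as the lowest control. The mean effect was 0.50 ± 0.08 (1.42-fold, adjusted p = 8.478e-04) and passed under all 9 alternatives and all 18 omissions of an array. On 1429360_at it was 0.36 ± 0.09 (adjusted p = 0.0237), which was lost without AKR/J controls 2 and 3 (adjusted p = 0.0688), without the strain AKR/J (0.0746) and without 1 of 5 arrays (AKR/J control 1 or sleep-deprived 2, C57BL/6J control 1 or sleep-deprived 1, DBA/2J sleep-deprived 1; adjusted p up to 0.0588). Its other 5 probe sets gave -0.05 to 0.14, none of them called.

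Klf13, a Sin3-recruiting factor that also activates chemokine genes in T cells, rose on 2 of 3 probe sets. On 1432543_a_at the C57BL/6J controls were at 7.10, 7.22 and 7.49 against 7.99, 7.97 and 7.98, and the DBA/2J controls at 7.16, 7.43 and 7.40 against 7.97, 7.66 and 7.94. In AKR/J the controls were at 7.47, 7.75 and 7.45 against 7.70, 7.56 and 7.71, so that strain's groups overlapped while the other two did not. The mean effect was 0.445 ± 0.07 (1.36-fold, adjusted p = 5.565e-04) and passed under all 9 alternatives and all 18 omissions. On 1436316_at the mean effect was 0.31 ± 0.08 (adjusted p = 0.0263), with groups apart in C57BL/6J alone; it was lost after quantile normalisation (0.0724), without AKR/J controls 2 and 3 (0.0688), without the strain AKR/J (0.0503) and without 1 of 5 arrays (AKR/J control 1 or sleep-deprived 1, C57BL/6J sleep-deprived 3, DBA/2J control 2 or sleep-deprived 3; up to 0.0596). The dim probe set 1456030_at, gave -0.05 ± 0.08.

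Klf11, a repressor known for its part in insulin gene control and TGF-beta signalling, rose by the smallest amount. The C57BL/6J controls were at 5.71, 5.77 and 5.72 against 5.99, 5.85 and 5.99, the AKR/J controls at 5.33, 5.51 and 5.45 against 5.70, 5.54 and 5.42, and the DBA/2J controls at 5.41, 5.39 and 5.31 against 5.55, 5.58 and 5.69. The groups were apart in C57BL/6J and DBA/2J and overlapped in AKR/J. The mean effect of 0.19 ± 0.05 had an adjusted p of 0.0390. That call is fragile: it passed under 4 of 9 alternatives, and of the 18 omissions of an array it passed for 4 (AKR/J control 2, AKR/J sleep-deprived 3, C57BL/6J sleep-deprived 2 and DBA/2J control 1), with adjusted p up to 0.1130 over all of these and the effect between 0.17 and 0.22. Without AKR/J control 1, 3 of the 32 liver probe sets passed in place of 6, against 2.76% of all probe sets.

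**Figure D3:**
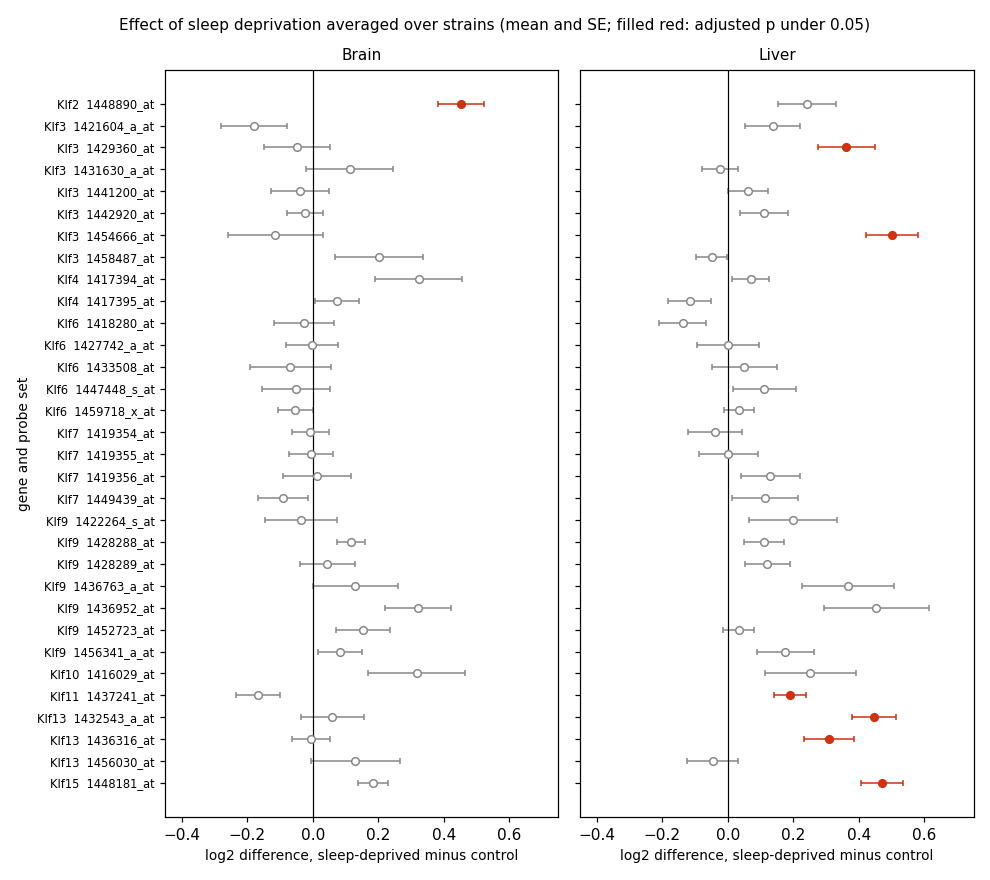
Mean effect of sleep deprivation over the 3 strains (x axis, log2 difference, sleep-deprived minus control) for each of the 32 probe sets (y axis), in brain and in liver; points give the estimate, bars the SE, and filled red points an adjusted p under 0.05. A filled point (Klf2) is seen in brain and 6 in liver, and the probe sets of Klf3, Klf9 and Klf13 spread widely within their gene.

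Klf9, Klf10 and Klf2 had positive liver differences that did not pass. For Klf9 on 1436952_at, controls were between 5.49 and 7.08 (median 6.72) and sleep-deprived arrays between 6.63 and 7.78 (median 6.98), and the mean effect was 0.45 ± 0.16 (adjusted p = 0.1467). The lowest of these values, 5.49, was the doubted DBA/2J control 1. The other 6 Klf9 probe sets gave 0.03 to 0.37, and the brightest, 1456341_a_at, gave 0.175. Klf10 was at 6.16 to 7.64 in controls (median 7.03) and 6.15 to 7.98 after sleep deprivation (median 7.27), a mean effect of 0.25 ± 0.14 (adjusted p = 0.4053). Klf2 was at 5.12 to 6.27 (median 5.77) and 5.49 to 6.43 (median 6.03), a mean effect of 0.24 ± 0.09 (adjusted p = 0.1656), with groups apart in C57BL/6J alone.

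Klf4, Klf6 and Klf7 showed no called difference in liver. Klf4 gave 0.07 on 1417394_at and -0.12 on 1417395_at, Klf6 gave -0.14 to 0.11 over 5 probe sets, and Klf7 gave -0.04 to 0.13 over 4. Several of these probe sets were dim in liver: group means of Klf4 were 3.06 to 3.98, against a median of 4.10 for all liver values. RMA compresses differences at such levels.

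Within strains, 4 probe sets passed in C57BL/6J liver, against 0.615% of all: Klf13 1432543_a_at (0.71 ± 0.12, adjusted p = 0.0043), Klf3 1454666_at (0.69 ± 0.14, 0.0198), Klf15 (0.55 ± 0.11, 0.0218) and Klf13 1436316_at (0.63 ± 0.13, 0.0311). Klf15 and Klf3 lost the call without C57BL/6J control 1 or 2 or sleep-deprived array 3 (adjusted p of 0.0924 to 0.1258), and Klf15 also without sleep-deprived array 2 (0.0851) and Klf3 without array 1 (0.0721), while Klf13 1432543_a_at kept it throughout. Klf13 1436316_at was lost under 4 of 9 alternatives and without control 1 or 2 or sleep-deprived array 1 or 3 (adjusted p up to 0.1937). In DBA/2J liver 2 passed, against 0.628%: Klf15 (0.55 ± 0.11, adjusted p = 0.0284) and Klf13 1432543_a_at (0.52 ± 0.12, 0.0450). Both were lost without DBA/2J control 1, the doubted array (adjusted p of 0.0867 and 0.2133), or without sleep-deprived array 1 or 3. Klf15 was also lost without DBA/2J control 2 (0.0558), and Klf13 passed for 5 of 18 omissions (AKR/J control 2, C57BL/6J control 1 or 3, DBA/2J control 2 or sleep-deprived 2), so these DBA/2J calls rest on few pools. They passed under 6 and 3 of 9 alternatives. In AKR/J liver limma called 0, against 0.711%, with 2 probe sets of the members at an unadjusted p under 0.05, against 9.70%. There Klf15 differed by 0.31 ± 0.11, Klf3 1454666_at by 0.29 ± 0.14 and Klf13 1432543_a_at by 0.10 ± 0.12. Without AKR/J controls 2 and 3 these were 0.41 ± 0.16, 0.39 ± 0.20 and 0.19 ± 0.16. The interaction was called for 0 members, against 0.0333% of all probe sets, and 4 of their probe sets had an unadjusted p under 0.05, against 6.83%. Klf13 1432543_a_at, whose strain effects spanned 0.61, had an interaction p of 0.0047 before and 0.5517 after adjustment. A smaller response in AKR/J was therefore not shown.

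Set against the brain response, the liver response was called larger for 1 of 32 probe sets, against 1.38% of all, and 7 had an unadjusted p under 0.05, against 12.0%. It was Klf11, which differed by 0.19 in liver and -0.17 in brain, a difference of 0.36 ± 0.08 (adjusted p = 0.0192 in a limma fit of all 36 arrays). The call was lost without AKR/J controls 2 and 3 (adjusted p = 0.1017) and with the replicate number as a block (0.0914), and held without any 1 array. Klf3 1454666_at, with 0.50 in liver and -0.12 in brain, differed by 0.62 ± 0.17 (adjusted p = 0.0685), and Klf15 by 0.29 ± 0.08 (0.0603); each passed under some settings, Klf3 without 7 of the 36 arrays in turn and Klf15 without 4. Klf2, called in brain, differed between the tissues by -0.21 ± 0.12 (adjusted p = 0.4974), so a difference between the tissues in its response was not shown.

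Among undisturbed controls, Klf9 was lower in DBA/2J brain on 3 of its 7 probe sets. On the brightest, 1456341_a_at, the C57BL/6J controls were at 11.28, 11.51 and 11.29, the AKR/J controls at 11.31, 11.25 and 11.29 and the DBA/2J controls at 10.22, 10.23 and 10.01, with DBA/2J below every other control by a wide gap. DBA/2J minus C57BL/6J was -1.21 ± 0.11 (adjusted p = 3.866e-06) and DBA/2J minus AKR/J -1.13 ± 0.11 (9.574e-06), in limma, and both passed under all 9 alternatives and all 18 omissions. The sleep-deprived arrays were lower too, at 10.47, 10.19 and 10.37 in DBA/2J against 11.50, 11.48 and 11.47 in C57BL/6J. On 1436763_a_at the DBA/2J controls were at 7.54, 7.08 and 7.19 against 8.45, 8.55 and 8.59 in C57BL/6J and 8.51, 8.31 and 8.41 in AKR/J, differences of -1.26 ± 0.22 (adjusted p = 0.0034) and -1.14 ± 0.22 (0.0093). On 1436952_at the differences were -0.79 ± 0.17 (adjusted p = 0.0206) and -0.84 ± 0.17 (0.0144).

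The other 4 Klf9 probe sets gave no called difference in brain, and their signs differed. On 1428288_at the DBA/2J controls were also lower, at 10.48, 10.45 and 10.53 against 10.73, 10.70 and 10.78 in C57BL/6J, with no overlap. That difference was small, -0.25 ± 0.075 (adjusted p = 0.1452), and passed under 3 of 9 alternatives: quantile normalisation (0.0389), an intensity trend with robust prior (0.0282) and array weights (0.0109). On 1428289_at the difference was 0.23 ± 0.15 and on the dim 1452723_at -0.02 ± 0.14. On 1422264_s_at it went the other way, 0.76 ± 0.19 (adjusted p = 0.0558), with DBA/2J controls at 8.31 ± 0.09 (SD, n = 3) against 7.55 ± 0.19 in C57BL/6J and 7.70 ± 0.19 in AKR/J. This higher level in DBA/2J passed under 6 of 9 alternatives and 3 of 18 omissions of an array (adjusted p of 6.532e-04 to 0.0442). In Affymetrix names, a suffix of a marks probes shared by several transcripts of a gene, and s marks probes that may also match other genes. The probe sets thus disagree on whether DBA/2J brain holds less Klf9 RNA, and the cause was not tested.

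**Figure D4:**
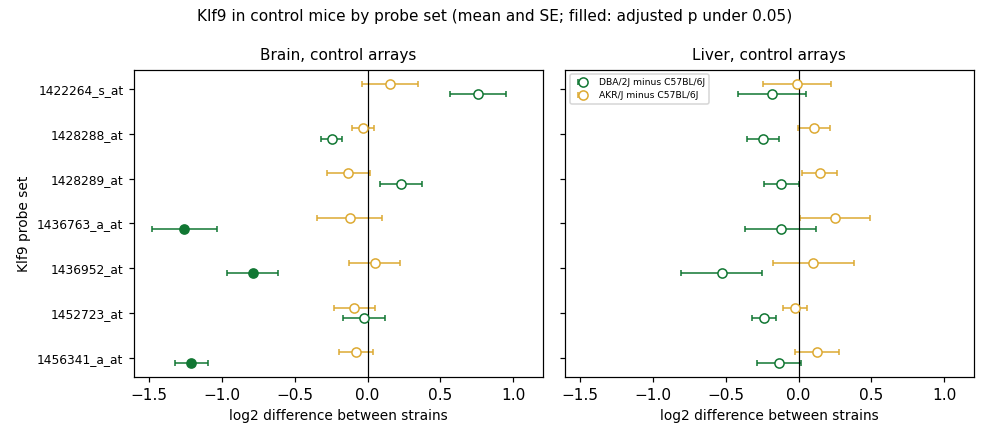
Difference between strains in controls (x axis, log2 difference, DBA/2J or AKR/J minus C57BL/6J) for the 7 Klf9 probe sets (y axis), in brain and liver; points give the estimate, bars the SE, and filled points an adjusted p under 0.05. In brain 3 probe sets lie between -1.26 and -0.79 for DBA/2J while the other 4 lie between -0.25 and 0.76, and in liver none is filled.

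In liver, 1456341_a_at did not separate the strains: its DBA/2J controls were at 10.89, 10.86 and 10.70 against 10.80, 11.19 and 10.86 in C57BL/6J, a difference of -0.14 ± 0.15 (adjusted p = 0.7355). A test added after these values were seen asked whether the strain difference differed between tissues. For DBA/2J minus C57BL/6J, liver minus brain was 1.07 ± 0.20 on this probe set (adjusted p = 7.840e-04; 2.57% of all probe sets were called), and for DBA/2J minus AKR/J it was 0.87 ± 0.20 (0.0097; 1.97% called). The first passed under all 9 alternatives and all 36 omissions of an array, and the second was lost without AKR/J controls 2 and 3 (1.01 ± 0.29, adjusted p = 0.1474). On 1436763_a_at, it was 1.14 ± 0.35 and 0.77 ± 0.35 (adjusted p of 0.0861 and 0.4701), and on 1436952_at 0.26 and 0.21. Other Klf9 probe sets ran the opposite way without passing: 1422264_s_at gave -0.94 ± 0.32 and -0.78 ± 0.32 (adjusted p of 0.1422 and 0.3588), 1428289_at -0.35 ± 0.19 and -0.63 ± 0.19 (0.5145 and 0.1101), and 1452723_at -0.21 and -0.28. On 1428288_at the values were 0.004 and -0.13.

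In all, 3 of the members' 32 probe sets were called in brain controls for DBA/2J minus C57BL/6J, against 1.90% of all probe sets. For DBA/2J minus AKR/J 3 were called, against 1.59%. For AKR/J minus C57BL/6J 0 were called, against 2.00%, and 4 had an unadjusted p under 0.05, against 10.3%. All called ones were the Klf9 probe sets above. Klf9 1436952_at against C57BL/6J was lost without C57BL/6J control 1 or 3 or DBA/2J control 3 (adjusted p of 0.1154 to 0.1369), and in a fit of those groups' arrays alone (0.0843). Against AKR/J, DBA/2J control 3 was needed for both 1436763_a_at (0.0502 without it) and 1436952_at (0.1084), DBA/2J control 2 and AKR/J control 1 for the first (0.0632 and 0.0538) and AKR/J controls 2 and 3 for the second (0.0617 and 0.0680). Without AKR/J controls 2 and 3 1456341_a_at alone passed there. Leaving out sleep-deprived array C57BL/6J 1, AKR/J 3 or DBA/2J 2, each of them doubted and of narrow spread, raised the count for DBA/2J minus C57BL/6J from 3 to 5 (2.05% to 2.26% of all probe sets), and leaving out AKR/J 3 or DBA/2J 2 raised that for AKR/J minus C57BL/6J from 0 to 2 (2.31% and 2.41%). The probe sets gained for DBA/2J minus C57BL/6J were Klf7 1419356_at and Klf9 1422264_s_at, the one that was higher in DBA/2J, and those gained for AKR/J minus C57BL/6J were Klf7 1419354_at and 1419356_at. Of the Klf7 probe sets, only 1419356_at set the C57BL/6J brain controls apart from both other strains. On the brightest, 1419354_at, C57BL/6J averaged 8.08, close to DBA/2J (8.13) and below AKR/J (8.45). On 1419355_at C57BL/6J (7.37) lay between AKR/J (7.35) and DBA/2J (7.47). On 1449439_at C57BL/6J (7.45) lay between DBA/2J (7.41) and AKR/J. For Klf7 1419356_at, the C57BL/6J controls averaged 6.89 ± 0.16 (SD, n = 3) against 7.53 ± 0.01 in AKR/J and 7.56 ± 0.06 in DBA/2J, differences of 0.65 ± 0.18 (adjusted p = 0.0964; 0.7394 without AKR/J controls 2 and 3) and 0.68 ± 0.18 (0.0794).

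In liver, AKR/J minus C57BL/6J was called for 2 members, against 5.09% of all probe sets. Klf3 1429360_at was higher in AKR/J, with controls at 6.90, 7.05 and 7.03 against 6.10, 6.32 and 6.57, a difference of 0.665 ± 0.15 (adjusted p = 0.0116; 0.3340 without AKR/J controls 2 and 3, 0.0534 without AKR/J control 2 and 0.0772 without C57BL/6J control 1). The brighter Klf3 probe set 1454666_at had overlapping controls, at 7.62 to 7.83 in AKR/J and 7.63 to 7.98 in C57BL/6J. Klf11 was lower in AKR/J (-0.31 ± 0.09, adjusted p = 0.0447) and in DBA/2J (-0.36 ± 0.09, 0.0145) than in C57BL/6J, and the C57BL/6J controls, at 5.71 to 5.77, lay above all 6 others, at 5.31 to 5.51. DBA/2J minus C57BL/6J was called for Klf11 alone among the members, against 5.57%, and was lost without C57BL/6J control 2 (0.0630) or DBA/2J control 3 (0.0502). The AKR/J value of Klf11 was -0.40 without AKR/J controls 2 and 3 (adjusted p = 0.1501), and it passed under 4 of 9 alternatives and 6 of 18 omissions (AKR/J sleep-deprived 1 or 3, C57BL/6J sleep-deprived 2, DBA/2J control 1 or 3 or sleep-deprived 3), so it is the less certain of the pair.

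DBA/2J minus AKR/J was called in liver for Klf10 alone, against 4.21%. Its DBA/2J controls were at 7.33, 7.64 and 7.29 and its AKR/J controls at 6.77, 6.75 and 6.16, with no overlap, a difference of 0.86 ± 0.24 (adjusted p = 0.0481), or of 0.65 ± 0.33 without AKR/J controls 2 and 3 (0.5613). It passed under 4 of 9 alternatives and 5 of 18 omissions (AKR/J sleep-deprived 1 or 3, C57BL/6J control 1 or 2, DBA/2J sleep-deprived 2), and failed without any of the 3 AKR/J controls (0.0618, 0.0709 and 0.2336) or of the 3 DBA/2J controls (0.0870, 0.1664 and 0.0644). Klf7 1419356_at had the same order in liver as in brain, with C57BL/6J controls at 3.98 ± 0.12 (SD, n = 3) against 4.49 ± 0.07 in AKR/J and 4.50 ± 0.09 in DBA/2J, without a call (adjusted p of 0.0665 and 0.0555). The AKR/J difference passed under 4 of 9 alternatives and 3 omissions (adjusted p of 0.0096 to 0.0478), but not without AKR/J controls 2 and 3 (0.5585). The DBA/2J difference passed under 6 of 9 alternatives and 3 omissions (0.0162 to 0.0445). The omissions were in both cases C57BL/6J sleep-deprived array 2 or 3 and DBA/2J sleep-deprived array 2. For DBA/2J each raised the count for that pair of strains from 1 to 2, which alone shows nothing particular to the members.

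Some members varied together across arrays. After subtraction of strain means, the brightest probe sets of Klf3 and Klf15 had a Pearson r of 0.79 over 18 liver arrays, Klf9 and Klf11 0.75, Klf11 and Klf13 0.74, Klf11 and Klf15 0.74 and Klf13 and Klf15 0.69. In brain the highest were Klf7 and Klf13 at 0.91, Klf7 and Klf9 at 0.68 and Klf9 and Klf13 at 0.66. The arrays share the sleep deprivation difference and, in brain, the narrow arrays, so these values are descriptions.

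The genes whose pattern was most like that of a called member were found by the same correlation over 18 arrays, among 18183 genes. For Klf15 in liver they were Tsc22d3 (r = 0.95), a classical glucocorticoid-induced gene, Mast3 (0.93) and Mknk2 (0.925). For Klf3 they were Zbtb16 (0.92), a glucocorticoid-induced zinc finger gene, Zfp664 (0.92) and Thap2 (0.90), for Klf13 Wbp1l (0.90), Zfp36l2 (0.90) and Cebpb (0.87), and for Klf11 Dnmbp (0.91), Spred2 (0.90) and Ip6k2 (0.89). For Klf2 in brain they were Ccnd3 (0.88), Sdf2l1 (0.86) and Pdia6 (0.84), of which the last 2 encode proteins of the endoplasmic reticulum. All of these passed the test of the mean effect but Cebpb (0.50, adjusted p = 0.0535), and each correlation includes the shared difference between conditions.

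Genes of the pathways tied to the family were counted by their brightest probe set, on lists drawn up with earlier results of these data known. Of all genes, 2.55% passed in brain and 4.88% in liver. A count of 0 or 1 on lists this short shows nothing particular to the list. Of 13 other Klf and Sp genes measured, 0 passed in brain and 0 in liver. Of 15 genes for the glucocorticoid receptor and its targets, 8 rose in liver and 0 fell, with a median of 0.39 against -0.02 for all genes; the largest were Zbtb16 (1.41), Tsc22d3 (1.19) and Fkbp5 (0.92). In brain 5 of 15 rose, among them Cdkn1a (0.84), Sgk1 (0.795) and Tsc22d3 (0.54), with a median of 0.26 against -0.01. In liver, where Klf15 is known to act on amino acid breakdown and gluconeogenesis, 5 of 16 such genes rose and 1 fell, with a median of 0.04; the largest were Tat (0.83, also on the glucocorticoid list), G6pc (0.61) and Pck1 (0.49). Of 12 adipogenic and lipid regulators 4 rose and 2 fell in liver, with Lpin1 at 1.41, Cebpd at 0.91 and Srebf1 at -0.56. Cebpd is also on the glucocorticoid list.

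Of 13 TGF-beta signalling genes, 1 rose in liver, Ccn2 (1.49), against 4.88% of all genes called there. In brain 1 rose, Tgfb3 (0.26), against 2.55%. Of the 12 cofactors of the family, 1 fell in brain, Sin3b (-0.43), a Sin3 subunit, and 1 in liver, the deacetylase Hdac1 (-0.22). Of 10 genes of the MEK5, ERK5 and MEF2 pathway, which drives Klf2 in endothelium, 0 passed in either tissue. Clock genes gave 2 higher and 2 lower of 16 in brain (Dbp at -0.83, Ciart at -0.45, Arntl at 0.32). In liver 2 were higher, Per1 (0.45, also on the glucocorticoid list) and Cry1 (0.40). Of 16 activity-regulated genes of neurons, 9 rose in brain, with Bdnf (0.78), Egr3 (0.78) and Arc (0.67) the largest, and 0 passed in liver.

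Markers of other cell types were read beside these results, again against 2.55% of all genes called in brain and 4.88% in liver. Of 11 endothelium markers, 0 passed in brain. Their average per brain array was 5.73 to 5.90 in controls and 5.67 to 5.90 after sleep deprivation, and the part of endothelium in the Klf2 rise was not tested. In liver 3 of 11 were higher, Flt1 (0.45), Pecam1 (0.42) and Tek (0.36), with averages of 4.73 to 5.29 and 5.17 to 5.47, and their part in the liver results was not tested. Of 7 oligodendrocyte markers 2 were lower in brain, Opalin (-0.95) and Aspa (-0.54), and of 7 astrocyte markers 1 was higher, Gjb6 (0.31). Neurons, microglia and macrophages, and choroid plexus had 0 called markers in brain. In liver, 0 of 10 macrophage and 0 of 4 cholangiocyte markers passed, 1 of 8 hepatocyte markers rose (Tat), and 1 of 6 lymphocyte (Cd79a, -0.295) and 1 of 9 neuron markers (Syt1, -0.58) fell.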

How the data were processed

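The deposited values were log2 expression values on 36 Affymetrix arrays, made by the authors; per the submitters' processing notes they used RMA. The RMA version and any genome build are not given in the sources used here. Gene names came from the platform annotation, updated by gene identifier through RefSeq's table for GRCm38.p6 (34741 of 34945 probe sets with 1 symbol matched). Of 45101 probe sets, 64 controls were left out. Each tissue was fitted as 6 group means, over its 18 arrays, in limma 3.58.1 (R 4.3.3), and a fit of 36 arrays compared the tissues. P-values are two-sided and adjusted over 45037 probe sets by Benjamini-Hochberg, with 0.05 as threshold. Values after ± are limma's standard errors unless marked SD. The number of arrays limits the precision, and p-values measure the spread between pools. Simulated data had the same effect in all 3 strains and noise independent between arrays. In the test of the mean effect, limma found 43.0% of the probe sets given a log2 effect of 0.3, in either tissue. At 0.6 it found 87.0% in brain and 91.0% in liver. Of all calls, 7 of 137 in brain and 10 of 144 in liver were false. Tests within a strain and between control strains were not simulated. All probe sets of the members were reported, from each list the 3 largest called genes at most, and for each called member the 3 genes most like it; all called genes of marker lists were named, those beyond 3 after their values were seen. Members, lists and doubted arrays were chosen with earlier results of these data known.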

Additional observations from a re-analysis of the deposited data

Results flagged for a closer look

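Klf11 (1437241_at) was the 1 probe set of 32 whose response to sleep deprivation was called different between the tissues, a share near the 1.38% of all probe sets. Liver minus brain was 0.357 on the log2 scale (SE 0.082, adjusted p = 0.0192 in limma), with 0.19 in liver and -0.17 in brain. The call was lost without AKR/J controls 2 and 3 (adjusted p = 0.1017) and with the replicate block (0.0914), and the liver effect passed its own test under 4 of 9 alternatives and 4 of 18 omissions of an array. Klf9 on 1456341_a_at differed between control strains in brain but not by the same amount in liver: for DBA/2J minus C57BL/6J, liver minus brain was 1.074 (SE 0.197, adjusted p = 7.840e-04). For DBA/2J minus AKR/J it was 0.870 (SE 0.197, adjusted p = 0.0097), lost without AKR/J controls 2 and 3 (1.01, adjusted p = 0.1474). The Klf9 probe sets disagreed: 1422264_s_at gave -0.94 and -0.78 for these differences and 1428289_at gave -0.35 and -0.63, opposite in sign and not called. The Klf9 comparison was added after its values had been seen, and the causes were not tested.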

How the results depend on the processing

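Counts below are of the 32 probe sets called, and smaller changes of a count are not all listed. The share of all probe sets called also changed with the setting. For the mean effect in brain it was 1.73% in the fit reported and 8.80% with array weights. That share is given for some settings only, so a changed count alone shows nothing particular to the members. For the mean effect in brain, 1 in the fit reported, the count was 3 after quantile normalisation, 2 among probe sets brighter than the median, 7 with array weights (8.80% of all probe sets called), 5 without the doubted arrays (4.14%) and 0 without AKR/J; leaving out each array in turn gave 1 to 3. For the mean effect in liver, 6 as reported, it was 3 without the strain AKR/J, and 3 to 6 over omissions. Quantile normalisation lost Klf13 1436316_at (adjusted p = 0.0724 in limma) and Klf11 (0.0739), and the intensity trend with robust prior lost Klf11 (0.0895). The replicate block lost Klf3 1429360_at (0.0699) and Klf11 (0.1130) and gained Klf2 (0.0448). Within brain strains, 0 as reported, array weights gave counts of 1 (C57BL/6J), 1 (AKR/J) and 2 (DBA/2J), leaving out the doubted arrays gave 1 for each of AKR/J and DBA/2J, while omissions gave 0 to 0. In C57BL/6J liver omissions gave 1 to 4. In DBA/2J liver, 2 as reported, the count was 1 after quantile normalisation, with array weights or without AKR/J controls 2 and 3, 0 with the replicate block, without the doubted arrays or in a fit of those groups alone, and 0 to 2 over omissions. Between brain controls, AKR/J minus C57BL/6J (0 as reported) gave 2 after quantile normalisation, 4 with array weights, 2 without the doubted arrays, 1 in a fit of those groups alone and 0 to 2 over omissions. DBA/2J minus C57BL/6J (3) gave 6 after quantile normalisation and with array weights, 5 with an intensity trend and robust prior and without the doubted arrays, and 2 to 5 over omissions. DBA/2J minus AKR/J (3) gave 7 with array weights, 1 without AKR/J controls 2 and 3, 6 without the doubted arrays and 1 to 4 over omissions. Between liver controls, AKR/J minus C57BL/6J (2) gave 1 after median centring, 1 with an intensity trend and robust prior, 0 without AKR/J controls 2 and 3, 3 with quantile normalisation and the brightness filter (Klf7 gained), 3 with array weights (Klf4 gained) and without the doubted arrays (Klf3 1421604_a_at gained), and 0 to 3 over omissions. DBA/2J minus C57BL/6J (1) gave 2 after median centring, quantile normalisation, the brightness filter, the intensity trend and the replicate block, and 0 to 2 over omissions. DBA/2J minus AKR/J (1) gave 0 after median centring, with array weights, without AKR/J controls 2 and 3 and without the doubted arrays, 2 with the brightness filter and the replicate block, and 0 to 1 over omissions. For liver minus brain (1), the count was 2 after median centring, quantile normalisation, the intensity trend and without the doubted arrays, 3 with the brightness filter, 5 with array weights, 0 with the replicate block and without AKR/J controls 2 and 3, and 1 to 2 over omissions.

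No called value of a member changed sign under any of these settings. Replicate numbers are not stated to pair the arrays. The correlation of same-numbered control and sleep-deprived arrays was over 0.1 for 5 of 18 pairs (range -0.42 to 0.41). It also reflects differences in quality between arrays, so it cannot decide whether pools were paired. With the replicate block the mean effect of Klf2 in brain had an adjusted p of 0.0152, Klf15 in liver 0.0012, Klf11 in liver 0.1130 and Klf3 1429360_at in liver 0.0699. The mean of the array medians, sleep-deprived minus control, was -0.003 in brain and -0.023 in liver, and median centring takes this difference out. Where a count moved, the cause was not tested. With 3 pools per group, mean effects over strains near 0.3 are often missed. How often effects within a strain or between control strains are missed was not simulated.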
